A study of Homo sapiens with 6 samples.

Results

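The genes described here are 6 ephrin receptors (EPHA1, EPHA2, EPHA4, EPHB2, EPHB3 and EPHB4) and 4 ephrins (EFNA1, EFNA4, EFNB1 and EFNB2), taken by symbol from a table of 21462 genes, in which all 10 were found. Read counts per gene were compared between control A431 cells (A431CT, genotype WT) and A431 cells carrying a CRISPR/Cas9 knockout of DSG2 (Dsg2KO, genotype DSG2 KO), with 3 libraries per condition. A431 is a human line from an epidermoid carcinoma of the skin, and both conditions were grown in the same serum-containing medium without other treatment. DSG2 encodes Desmoglein-2, a desmosomal cadherin, and the comparison addresses which transcripts differ when it is lost. Whether the edited cells come from 1 clone, and whether the 3 libraries of a condition come from separately edited lines, is not given in the sources used here, so an effect of the DSG2 edit and a difference acquired by the edited line cannot be told apart.

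Eph receptors are receptor tyrosine kinases that are activated by ephrins on the surface of a touching cell. Ephrins of class A are held in the membrane by a lipid anchor and mostly bind EphA receptors, those of class B cross the membrane and mostly bind EphB receptors, and EphA4 binds both. Signals run into the receptor-bearing cell and, in the reverse direction, into the ephrin-bearing cell, and they control repulsion, adhesion and the sorting of cells at boundaries. In the epidermis EphA2 with its ligand ephrin-A1 is known for roles in keratinocyte adhesion, migration and differentiation, and B-class members for the loosening of cell contacts during wound repair.

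The libraries held between 12845719 and 16255692 counts, so that 3 counts, taken here as a floor, amount to between 0.184 and 0.236 CPM (counts scaled to the library's counts in tested genes, after TMM scaling), counting error only. DSG2 itself was at 330.0, 320.3 and 318.8 CPM in the A431CT libraries and at 50.9, 55.2 and 49.7 CPM in the Dsg2KO libraries, as the labels say. One library stood apart: A431CT replicate 2 had 51 genes with at least 10 counts that were at 3 counts or fewer in every other library, whereas the other libraries had between 2 and 4 such genes. The 46 of these 51 genes that could be placed had a median genomic span of 570 kb, against 26.4 kb over all placed genes. Without this library 3 tested members were higher and 2 lower by the test used below, as with it. Of 16 squamous keratinocyte markers 15 were tested, and 4 were higher and 6 lower by adjusted p-value (edgeR). This was 66.7% of the tested list, against 29.6% of all tested genes, and the largest rise was 0.28 on the log2 scale. KRT15 and KRT6A, keratins of basal and of activated keratinocytes, passed both thresholds and fell, from 182 ± 29.8 to 91.0 ± 11.8 CPM and from 8.44 ± 0.660 to 4.12 ± 0.825 CPM (SD, n = 3), by 1.00 and 1.03 on the log2 scale. They are 13.3% of the tested list, against 6.03% of all tested genes past both thresholds. The part of these markers in the members' values was not tested. KRT5 was at 630 CPM in A431CT and 575 CPM in Dsg2KO cells, but KRT14, a defining keratin of basal keratinocytes, was at or near 0 (mean 0.0779 CPM in A431CT, no count in Dsg2KO). All 7 fibroblast markers were at or near 0, and of the blood cell and melanocyte markers LYZ and PMEL alone reached 1 CPM. LYZ had means of 2.02 CPM in A431CT and 3.19 CPM in Dsg2KO cells, and PMEL of 3.67 and 3.62 CPM. The summed level of 5 endothelial markers was 8.53 to 11.5 CPM in A431CT and 15.1 to 15.7 CPM in Dsg2KO libraries, with KDR and TEK near 0 in both conditions, and PECAM1, CDH5 and VWF above 1 CPM.

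Among the receptors EPHA2 moved in one direction and 3 others in the opposite one. EPHA2 fell to 68.8% of its control level in Dsg2KO cells, while EPHB4, EPHA1 and EPHB2 rose 1.30-fold, 1.22-fold and 1.17-fold. The ephrins lay between 90.3% of the control level for EFNB1, which fell, and 1.20-fold for EFNA1, which did not pass the test. Of the 9 members that passed the filter on low counts, 5 had an adjusted p-value under 0.05 (edgeR's quasi-likelihood test, Benjamini-Hochberg over all 12857 tested genes), 3 of them higher and 2 lower, where 29.6% of all tested genes did (14.3% higher and 15.3% lower). EPHA2 alone also reached an absolute log2 fold change of 0.5, the study's second threshold. Both thresholds together were passed by 6.03% of all tested genes, 2.99% higher and 3.03% lower, and by 0 members higher and 1 lower. The median log2 fold change was 0.16 over the 9 members and -0.0048 over all tested genes.

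The promoters of the 4 receptors that changed are shown because these genes moved in different directions. Each line gives the 250 bases before the RefSeq gene start (GRCh38.p14), written 5′ to 3′ on the gene's own strand, with GC boxes (GGGCGG or, for the other strand, CCGCCC) and the cAMP response element TGACGTCA in capitals. EPHA2 and EPHB2 lie on chromosome 1 (chr1:16156070-16156319, minus strand, and chr1:22710589-22710838, plus strand), and EPHB4 and EPHA1 on chromosome 7 (chr7:100827524-100827773 and chr7:143408857-143409106, both minus strand).
EPHA2: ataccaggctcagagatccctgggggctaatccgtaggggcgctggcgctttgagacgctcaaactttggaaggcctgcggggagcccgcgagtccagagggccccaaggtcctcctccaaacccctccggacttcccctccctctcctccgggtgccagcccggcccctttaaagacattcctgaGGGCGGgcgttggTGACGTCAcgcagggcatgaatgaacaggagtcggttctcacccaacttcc
EPHB4: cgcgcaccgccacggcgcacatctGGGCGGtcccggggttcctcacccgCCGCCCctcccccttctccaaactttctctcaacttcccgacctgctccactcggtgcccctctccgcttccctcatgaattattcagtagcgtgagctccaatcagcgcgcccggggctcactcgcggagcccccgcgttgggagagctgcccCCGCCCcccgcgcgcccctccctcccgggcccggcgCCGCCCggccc
EPHA1: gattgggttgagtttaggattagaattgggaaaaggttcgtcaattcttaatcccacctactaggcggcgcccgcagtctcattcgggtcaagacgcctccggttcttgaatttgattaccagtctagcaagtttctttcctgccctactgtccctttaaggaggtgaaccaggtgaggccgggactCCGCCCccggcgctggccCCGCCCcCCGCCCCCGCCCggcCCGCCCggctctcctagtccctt
EPHB2: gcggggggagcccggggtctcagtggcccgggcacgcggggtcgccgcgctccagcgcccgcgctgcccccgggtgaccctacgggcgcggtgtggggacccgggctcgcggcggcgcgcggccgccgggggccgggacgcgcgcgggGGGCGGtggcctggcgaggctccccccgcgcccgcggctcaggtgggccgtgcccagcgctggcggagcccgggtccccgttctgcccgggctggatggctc
All 4 windows held a GC box, 1 in EPHA2, 4 in EPHB4, 5 in EPHA1 and 1 in EPHB2, and 42.6% of 35116 promoter windows of the same length held at least 1. The windows of all the other members held a GC box too. The GC content of the 4 windows ran from 59.2% in EPHA1 to 84.8% in EPHB2, against a median of 58.0% over all windows. The TGACGTCA element was found in the EPHA2 window and in 1.65% of all windows, and in no window of the other 9 members. AP-1 letters (TGANTCA, which read the same on the other strand) were found in none of the 10 members' windows, against 6.57% of all windows. The NF-κB consensus was searched in the written direction only, and it was found in none of the members' windows and in 7.46% of all windows. The CCAAT box (CCAAT or ATTGG) was found in the windows of EPHB4 and EPHA1 but in neither that of EPHA2 nor that of EPHB2, and in 32.0% of all windows. It was also found in the windows of EPHB3, EFNA4, EFNB1 and EFNB2. These are matches of letters and were not related to the expression values by any test.

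EPHA2, the receptor best known from the epidermis, was measured at 135.3, 129.9 and 147.2 CPM in A431CT libraries 1 to 3 and at 96.6, 92.0 and 95.02 CPM in Dsg2KO libraries 1 to 3. Every Dsg2KO library lay below every A431CT library, and the gap between the groups was wider than the range within either. The means were 137 ± 8.86 and 94.5 ± 2.35 CPM (SD, n = 3), a log2 fold change of -0.54 (95% interval -0.65 to -0.43, adjusted p = 1.90e-06, edgeR). Without A431CT replicate 3, its highest library, the log2 fold change was -0.49 (adjusted p = 7.87e-06, edgeR), short of the minimum of 0.5, and without A431CT replicate 2 it was -0.58. In these bulk libraries fewer cells with a transcript and less of it per cell cannot be told apart.

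EPHB4, the receptor of ephrin-B2, was measured at 101.8, 96.4 and 97.6 CPM in A431CT and at 130.2, 128.6 and 125.7 CPM in Dsg2KO libraries. The groups were far apart, with no overlap. The log2 fold change was 0.38 (95% interval 0.29 to 0.47, adjusted p = 1.23e-05, edgeR), which makes EPHB4 the most raised of the 9 tested members. EPHB4 is also made by endothelial cells, and of 5 endothelial markers 3 were tested. CDH5 rose by 0.76 on the log2 scale to a mean of 8.03 CPM, and PECAM1 rose by 0.54 to 5.95 CPM, a call that was lost in 6 of 13 alternative settings. VWF had a log2 fold change of 0.22 with overlapping groups (adjusted p = 0.66, edgeR), and TEK had a mean of 0.103 CPM in A431CT and 0.0408 CPM in Dsg2KO libraries and KDR of 0 and 0.108 CPM, all under the floor of 3 counts. Their part in the EPHB4 value was not tested.

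EPHA1, an A-class receptor of epithelia, was at 53.6, 54.9 and 51.6 CPM in A431CT and at 63.5, 66.2 and 65.0 CPM in Dsg2KO libraries, again without overlap. Its log2 fold change was 0.28 (95% interval 0.17 to 0.39, adjusted p = 9.23e-04, edgeR). EPHB2, a B-class receptor, was at 74.7, 72.1 and 78.1 CPM in A431CT and at 90.0, 85.5 and 86.8 CPM in Dsg2KO libraries. The lowest Dsg2KO library stood above the highest A431CT library, and the log2 fold change was 0.22 (95% interval 0.12 to 0.33, adjusted p = 0.0032, edgeR). These genes and EPHB4 kept their direction and an adjusted p-value under 0.05 in all 13 alternative settings.

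EPHB3, the third B-class receptor, was lower in level, at 16.3, 13.5 and 14.9 CPM in A431CT and 17.3, 17.1 and 15.3 CPM in Dsg2KO libraries. The groups overlapped, and the log2 fold change of 0.16 had a 95% interval of -0.07 to 0.38 (adjusted p = 0.29, edgeR). EPHA4, the receptor that binds both ephrin classes, had only 8, 8 and 16 counts in A431CT and 5, 5 and 7 counts in Dsg2KO libraries and did not pass the filter on low counts. Fitted without that filter, its log2 fold change was -1.17 with a standard error of 0.66 (adjusted p = 0.23, edgeR), so that a difference was not detectable at this depth.

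**Figure D1:**
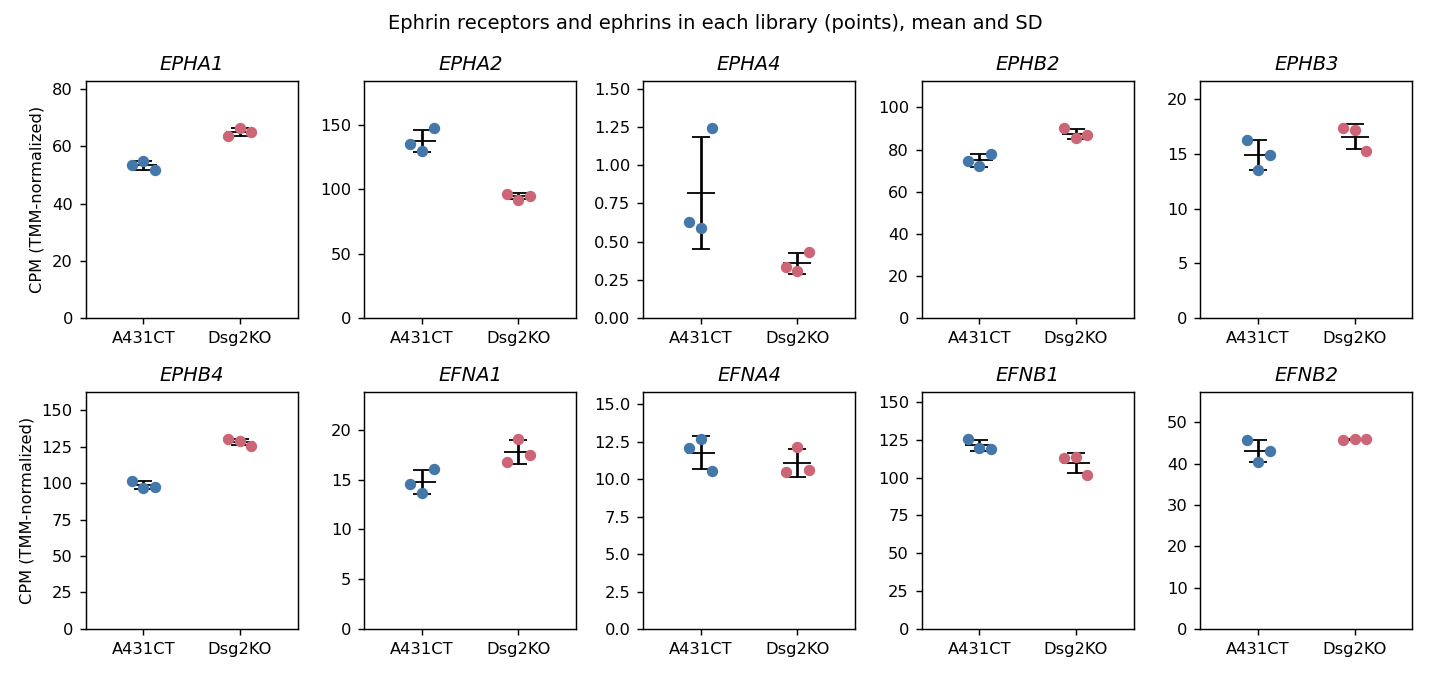
Level of each of the 10 members (y axis, CPM after TMM scaling, from 0) in the 3 A431CT and 3 Dsg2KO libraries (points), with the mean and SD as bars. EPHA2 sits lower in all 3 Dsg2KO libraries (92.0 to 96.6 against 129.9 to 147.2 CPM), EPHA1, EPHB2 and EPHB4 sit higher, and the groups of EPHB3, EFNA4 and EFNB2 overlap.

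Among the ephrins, EFNB1, a B-class ephrin, was the most abundant, at 125.4, 119.7 and 119.1 CPM in A431CT and 112.9, 113.9 and 102.1 CPM in Dsg2KO libraries. Its groups did not overlap, but the gap was narrow, with a log2 fold change of -0.15 (95% interval -0.25 to -0.04, adjusted p = 0.0362, edgeR). This call was the least firm of the 5, since the adjusted p-value was 0.139 without A431CT replicate 1, 0.0537 without Dsg2KO replicate 1 and 0.155 without Dsg2KO replicate 3 (edgeR), and 0.0579 with DESeq2.

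EFNA1, which encodes the ligand ephrin-A1, was at 14.5, 13.7 and 16.1 CPM in A431CT and 16.8, 19.1 and 17.5 CPM in Dsg2KO libraries. The groups did not overlap, but the log2 fold change of 0.27 (95% interval 0.05 to 0.48) had an adjusted p-value of 0.0568 (edgeR) and did not pass the test. Without A431CT replicate 3 it did, at 0.33 (adjusted p = 0.0368, edgeR). Over all tested genes the conditions did not overlap for 42.6% (21.2% higher and 21.4% lower), and for the members this was so for 6 of 9, 4 higher and 2 lower.

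EFNB2, the ligand of EphB4, was at 45.8, 40.5 and 43.2 CPM in A431CT and 45.7, 45.9 and 45.9 CPM in Dsg2KO libraries. The Dsg2KO values lay within or just above the A431CT range, and the log2 fold change of 0.09 had a 95% interval of -0.04 to 0.22 (adjusted p = 0.32, edgeR). EFNA4, a further A-class ephrin, was at 12.1, 12.7 and 10.5 CPM in A431CT and 10.5, 12.2 and 10.6 CPM in Dsg2KO libraries. These groups overlapped throughout, with a log2 fold change of -0.09 (95% interval -0.35 to 0.17, adjusted p = 0.65, edgeR), so changes within these intervals cannot be told from none.

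To compare the members with each other, CPM was divided by the length of all annotated exons of the gene (GENCODE version 44, in kilobases). In A431CT cells the order of mean levels per kb was EFNB1 (36.8), EPHA2 (33.2), EPHB4 (15.3), EPHA1 (11.4), EFNA4 (9.37), EFNB2 (8.62), EFNA1 (6.83), EPHB2 (5.99), EPHB3 (3.29) and EPHA4 (0.109). Over the 6 libraries of both conditions the ranges of EFNB1 and EPHA2 overlapped. So did those of neighbours in the order from EFNA4 down to EPHB2, whereas EPHB4, EPHA1, EPHB3 and EPHA4 were each separate from their neighbours. Within the A431CT libraries alone, EFNA4 (8.39 to 10.1) and EFNB2 (8.09 to 9.15) were the only neighbours in the order that overlapped. There EFNB1 (36.1 to 38.0) lay above EPHA2 (31.4 to 35.6). This order depends on the length used. With the length of the canonical transcript EFNA1 (9.53) came before EFNA4 (9.39) in A431CT cells. EPHB4 was then at 22.7 against 34.8 for EPHA2 in A431CT cells, and at 29.5 against 24.0 in Dsg2KO cells. EFNB1 lay above 90.0% of the tested genes with a known length on this scale and EPHA2 above 88.6%, and EPHB3 lay above 33.3%.

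The summed level of the 6 receptors was 69.3 ± 2.28 CPM per kb in A431CT and 67.3 ± 0.771 in Dsg2KO cells (SD, n = 3), a difference smaller than the SD in A431CT cells. EPHA5, a receptor outside the 6, had means of 41.5 CPM per kb in A431CT and 33.5 in Dsg2KO cells. It was left out, so this sum does not cover all Eph receptors of these cells. The small difference between conditions holds for the 6 listed receptors only, since EPHA5 was lower in every Dsg2KO library. Within this sum EPHA2 made up 47.0%, 46.9% and 49.8% in A431CT libraries and 34.2%, 33.2% and 34.4% in Dsg2KO libraries. EPHB4 went from 22.7%, 22.4% and 21.2% to 29.7%, 29.8% and 29.3%, and EPHA1 from a mean of 16.4% to 20.6%. With the length of the canonical transcript in place of all exons EPHB4 was above EPHA2 in Dsg2KO cells, at a mean of 34.7% against 28.2%. Of the 4 ephrins EFNB1 made up a mean of 59.7% in A431CT and 55.9% in Dsg2KO cells, and the ephrins' summed level was 61.6 ± 1.65 and 59.4 ± 2.78 CPM per kb (SD, n = 3).

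**Figure D2:**
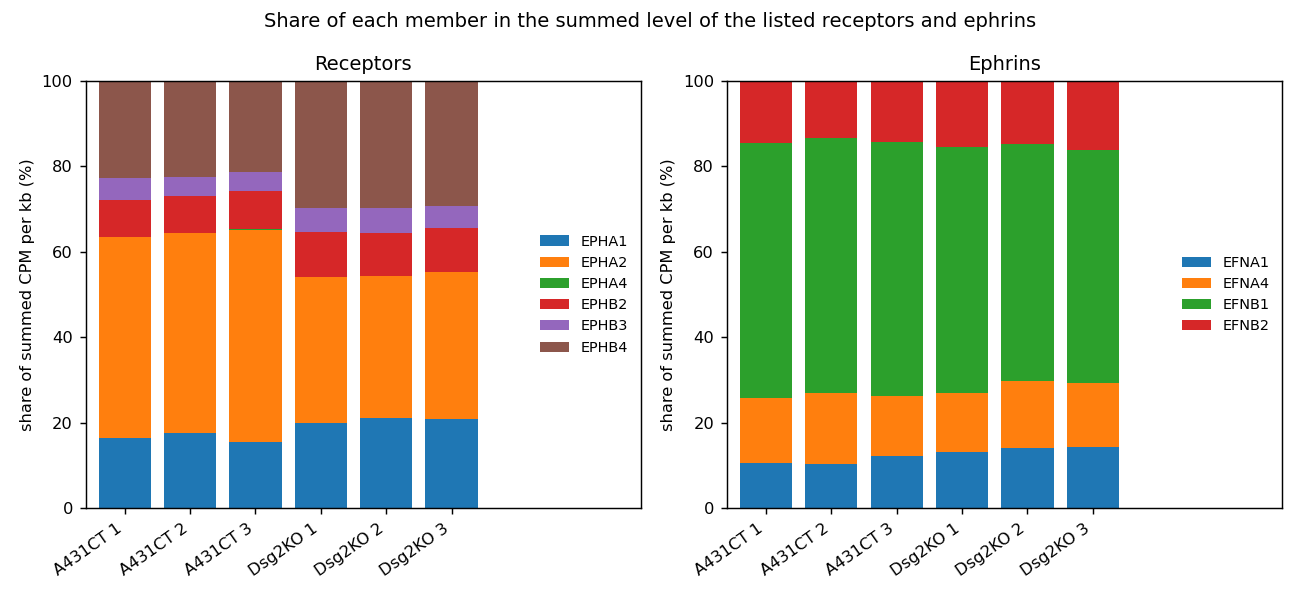
Share of each member (colours, in %) in the summed CPM per kb of the 6 receptors (left) and of the 4 ephrins (right), with 1 bar per library. Family genes outside the members, among them EPHA5, are not in these sums. The EPHA2 part shrinks from between 46.9% and 49.8% in A431CT to between 33.2% and 34.4% in Dsg2KO libraries, the EPHB4 part grows, EPHA4 is too small to be seen, and the ephrin bars change little.

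Ratios of a ligand to its receptor were taken within each library, for 3 pairs. EFNA1 to EPHA2 was 0.206, 0.202 and 0.210 in A431CT and 0.332, 0.397 and 0.352 in Dsg2KO libraries, so that it was higher in each of the latter. EFNB2 to EPHB4 went the other way, from 0.562 ± 0.0201 to 0.460 ± 0.00899 (SD, n = 3), as did EFNB1 to EPHB2, from 6.14 ± 0.320 to 4.75 ± 0.296 (SD, n = 3). In all 3 pairs the conditions did not overlap, and each exact two-sided permutation test gave p = 0.1, the smallest value that 3 libraries against 3 can give, so none can pass 0.05, also after adjustment over the 3 pairs.

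**Figure D3:**
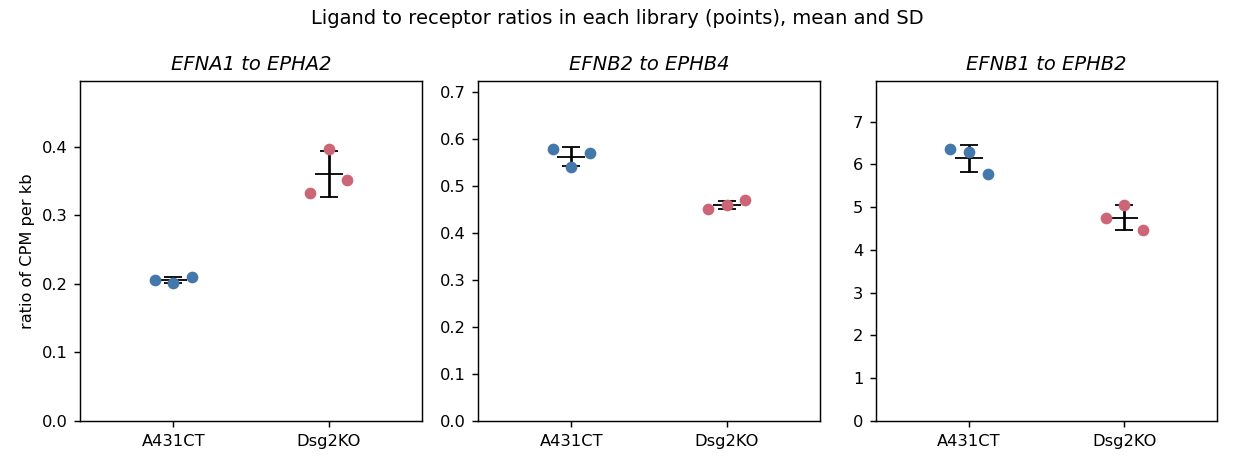
Ratio of ligand to receptor level (CPM per kb, y axes from 0) in each library (points), with mean and SD as bars, for EFNA1 to EPHA2, EFNB2 to EPHB4 and EFNB1 to EPHB2. The first ratio is higher in the Dsg2KO libraries (0.332 to 0.397 against 0.202 to 0.210), and the others are lower.

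Each member was set beside the tested genes within 5 Mb of it. EPHA2 (chromosome 1, 16124337 to 16156069, GRCh38) and EPHB2 (chromosome 1, 22710839 to 22921500) lie 6.59 Mb apart, so that their windows overlap. Around EPHA2, 57 of 68 neighbours had a negative log2 fold change and the median was -0.32, and around EPHB2 this was so for 90 of 99, with a median of -0.32. EPHA2 was thus lower than its surroundings by 0.22 on the log2 scale, with 12 of 68 neighbours lower still. EPHB2 was above its surroundings by 0.54 and higher than 96 of 99 neighbours. The 95% intervals of both genes exclude the median of their neighbours, but they measure the spread between libraries and not that among neighbours. The part of the chromosome in the EPHA2 value was not tested.

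EPHB4 (chromosome 7, 100802565 to 100827523) had 95 neighbours and their median change was -0.02 on the log2 scale, and it was higher than 88 of them. EPHA1 (chromosome 7, 143390289 to 143408856) had 40 neighbours with a median of 0.09, and was higher than 33. The neighbours of the other tested members had medians between -0.03 for EFNB1 (chromosome X, 68829021 to 68842160) and 0.10 for EFNB2 (chromosome 13, 106489745 to 106535662). EFNA4 and EFNA1 lie near each other on chromosome 1 (155063737 to 155069553 and 155127876 to 155134899), EPHB3 lies on chromosome 3 (184561785 to 184582408) and the untested EPHA4 on chromosome 2 (221418027 to 221574202).

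**Figure D4:**
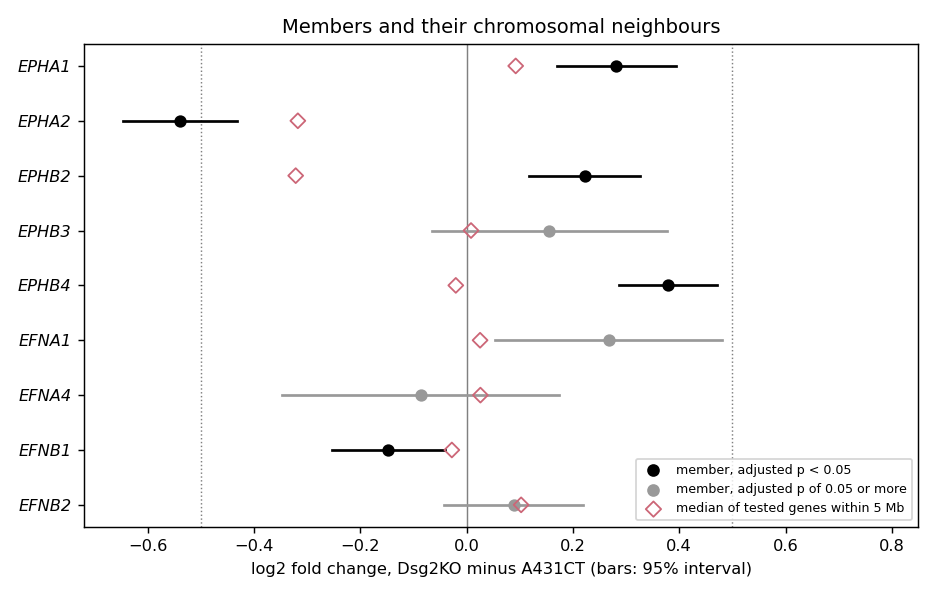
Log2 fold change of the 9 tested members (points, black with an adjusted p-value under 0.05) with 95% intervals (bars), and the median log2 fold change of the tested genes within 5 Mb of each (open diamonds); dotted lines mark an absolute change of 0.5. EPHA2 lies at -0.54 and EPHB2 at 0.22, although the diamonds of both lie at -0.32.

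Some of these genes share annotated exon bases with others, and the library kit named in the labels is not described as strand-specific. EPHA1 shares 82 exon bases with ZYX on the opposite strand, which was itself higher, from 132 to 165 CPM with a log2 fold change of 0.32. EPHB4 shares 69 exon bases with SLC12A9 on the opposite strand, for which the log2 fold change was 0.03 (95% interval -0.10 to 0.15). EFNA4 shares 189 and EFNA3 853 exon bases with the annotated readthrough gene EFNA4-EFNA3, which has no row of its own in the table, so reads of that transcript could be counted under either. EFNB2 shares 1822 exon bases, and the low-count EPHA4 353, each with an unnamed antisense lncRNA that also has no row. EPHB2 shares 34 exon bases with the antisense microRNA gene MIR4253, which has no row. The family gene EPHA5 shares 535 exon bases with the antisense lncRNA EPHA5-AS1, which has no row either. Reads from overlapping genes cannot be told apart here.

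The rest of the family counts 12 genes, of which 3 were tested. EPHA5, a receptor mostly known from the nervous system, was the highest of all family genes in level per kb in A431CT cells, at 41.5 ± 1.62 (SD, n = 3), and fell to 33.5 ± 0.360 in Dsg2KO cells. On the log2 scale it changed by -0.31 (95% interval -0.39 to -0.23, adjusted p = 2.29e-05, edgeR), so that it and EPHA2 were both A-class receptors that fell, while EPHA1 rose. EFNA3, an A-class ephrin that lies between EFNA4 and EFNA1 on chromosome 1, rose from 3.95 to 6.32 CPM. It passed both thresholds, with a log2 fold change of 0.68 (95% interval 0.31 to 1.04, adjusted p = 0.0080, edgeR), whereas its neighbours EFNA4 and EFNA1 did not pass the test. EFNA5 had a log2 fold change of 0.08 (95% interval -0.10 to 0.25), with overlapping groups. The remaining 9 genes had too few counts to be tested, among them EPHA3 and EPHA6, whose 21 and 14 counts in A431CT replicate 2, the library that stood apart, were their highest, against at most 4 and 3 elsewhere.

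Of 41 genes for adaptors, kinases and GTPase regulators on the receptor side of the pathway, 37 were tested, and 7 were higher and 10 lower by adjusted p-value, 45.9% of the list against 29.6% of all tested genes (median log2 fold change -0.02). Of these, 2 passed both thresholds, 5.41% of the list, which is near the 6.03% of all tested genes. GRB7, an adaptor that binds receptor tyrosine kinases, rose from 12.6 to 21.2 CPM, with a log2 fold change of 0.75 (adjusted p = 1.13e-04, edgeR). ITSN1, a scaffold and exchange factor for CDC42, had 0, 0 and 17 counts in A431CT and 75, 9 and 135 counts in Dsg2KO libraries. These counts overlap, and the call (adjusted p = 0.0105, edgeR) was lost without Dsg2KO replicate 3 (adjusted p = 0.0696, edgeR) and with DESeq2 (adjusted p = 0.30). ITSN1 also lies among 44 neighbours with a median log2 fold change of 0.39. CDC42, the small GTPase of filopodia and polarity, was chosen after its values were seen. It had the smallest p-value of the list and fell from 356 ± 8.62 to 267 ± 3.30 CPM (SD, n = 3), a log2 fold change of -0.41 (adjusted p = 1.02e-06, edgeR), with a median of -0.32 over its 92 neighbours on chromosome 1.

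Of 15 genes on the ephrin side 14 were tested, and GIT1 was higher and SRC, FYN and RGS3 were lower by adjusted p-value, with log2 fold changes of 0.23, -0.17, -0.23 and -0.28, none reaching 0.5 in size (median over the list -0.08). These 4 are 28.6% of the tested list, near the 29.6% of all tested genes. The calls of FYN, RGS3 and SRC were lost in 8, 4 and 2 of 13 alternative settings. The tested genes within 5 Mb had median log2 fold changes of 0.17 around GIT1, -0.18 around SRC, -0.19 around FYN and 0.04 around RGS3. The part of the chromosome in these 4 values was not tested. SRC and FYN are kinases that phosphorylate B-class ephrins, and RGS3 and GIT1 are partners of their cytoplasmic tails. Of 10 genes for proteases that cut Eph receptors or ephrins and for subunits of γ-secretase, 9 were tested (median -0.03), and 4 passed by adjusted p-value, 44.4% against 29.6% of all tested genes. RHBDL2, a rhomboid protease, passed both thresholds and fell from 13.5 to 9.35 CPM, with a log2 fold change of -0.53 (adjusted p = 0.0027, edgeR), and with a median of -0.28 over its 97 neighbours. Without A431CT replicate 2 it was at -0.50, just short of the minimum in size. ADAM17 and the γ-secretase subunit PSENEN fell by 0.20 and 0.31 on the log2 scale, and NCSTN, a further subunit, rose by 0.30. The ADAM17 call was lost in 9 of 13 alternative settings. ADAM10, the sheddase best known for ephrins, had a log2 fold change of 0.11 (adjusted p = 0.096, edgeR) and did not pass the test.

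EPHA2 had the smallest p-value of the members. The genes whose log2 CPM followed it most closely over the 6 libraries were GRK6, SART3 and KIF18B, with Pearson's r of 0.998, 0.998 and 0.997. With 6 libraries in 2 conditions such values mostly carry the difference between conditions, and 493 genes had an r above 0.95.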

How the data were processed

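RNA-seq of 3 A431CT and 3 Dsg2KO libraries of a cell line was analysed. Trimming, alignment to GRCh38 and counting of paired-end reads were done by the authors in CLC Genomics Workbench version 23, and the deposited table holds these raw counts without normalization. The gene annotation and strand setting are not given in the sources used here. All 6 columns were matched to a sample by library name.

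Counts were analysed in R 4.3.3 with edgeR 4.0.16: filterByExpr (minimum count 10, minimum total 15), TMM factors, quasi-likelihood F test without covariates, and Benjamini-Hochberg adjustment over 12857 genes. A gene passed the test with an adjusted p-value under 0.05, and both thresholds when its log2 fold change was also 0.5 or more in size. Standard errors were derived from the F statistic. The fit was tested on simulated data with known changes. GENCODE version 44 (GRCh38) matched 19478 of 21462 symbols, and RefSeq promoters matched all 10 members.

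The members and all gene lists were chosen with earlier results of these data known. The members, DSG2, tested family genes, list genes past both thresholds, other cell types' markers that reached 1 CPM, and the 3 genes most alike to the member with the smallest p-value were named by rule (at most 8 per list). PSENEN, NCSTN, ADAM17, ADAM10, CDC42, SRC, FYN, RGS3, GIT1, ZYX, SLC12A9, KRT5, KRT14, KDR, TEK, EPHA3 and EPHA6 were named, and the promoter motifs chosen, after values were seen. The alternatives were RLE factors, total counts, other low-count filters, DESeq2 1.42.0, the likelihood ratio test, a replicate block, other fold minima, and each library left out, with canonical transcript lengths added after seeing the data. Same-numbered libraries had residual correlations between -0.0027 and 0.0539, so they were not treated as pairs. The labels do not name separate cultures, while the paper gives 3 biological replicates per condition. The p-values weigh the difference between conditions against the spread between these libraries. Replicates of a condition differed beyond counting noise (chi-square per degree of freedom from 2.66 to 4.20).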

Additional observations from a re-analysis of the deposited data

How the results depend on the processing

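For the 9 tested members and 13 alternative settings each, the direction was the same in all 117 fits, and the side of the adjusted p-value threshold was the same in 109. The exceptions were 5 for EFNB1, which no longer passed, and 3 for EFNA1, which then passed. EFNB1 was at an adjusted p-value of 0.0691 with total counts only (edgeR) and 0.0579 with DESeq2, so that 1 member was lower by adjusted p-value in place of 2, and 1 to 2 with a library left out. With the fold change minimum removed, 3 members were higher and 2 lower, and 3802 genes passed. With a minimum of 1, no member was lower, and 250 genes passed. Leaving out a library gave 0 or 1 lower members past both thresholds. EFNA5, at 0.08 on the log2 scale, ranged from -0.0127 without A431CT replicate 1 to 0.137 without A431CT replicate 3. A replicate block, which changed no call of a member, gave 769 genes past both thresholds against 775. The share of EPHA2 fell by 13.0 to 14.4 percentage points with a library left out and by 13.2 with canonical transcript lengths, an alternative chosen after seeing the data, as was leaving out libraries for shares and ratios. With those lengths the EFNA1 to EPHA2 ratio differed by 0.206 and the EFNB2 to EPHB4 ratio by -0.0695 between conditions, against 0.155 and -0.103. A new length multiplies a ratio by the same factor in every library, so the fold difference between conditions cannot change with it. PMEL, at -0.02, ranged from -0.167 without A431CT replicate 3 to 0.108 without A431CT replicate 2 and was 0.00329 with total counts only, and SLC12A9 ranged from -0.00268 without A431CT replicate 2 to 0.0478 without A431CT replicate 1. For 35 of the named genes, members included, 406 of 454 fits kept direction and side of the threshold. At this depth EPHA4 and 9 other family genes had too few counts to be tested. For those near 0, absent expression and expression too low for this depth cannot be told apart.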
